A study of Homo sapiens with 24 samples.

Results

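The miRNAs described here are hsa-miR-486-5p, hsa-miR-486-3p, hsa-miR-451a, hsa-miR-144-3p and hsa-miR-144-5p, a set best known from red blood cells. They were chosen by name from the table of mature miRNAs, which gave 5 of its 2656 entries. The choice was made with earlier results of these data known, and which values entered it is not recorded. For that reason the difference between the cultures is given as a description, and tests are given for the knockdowns. The knockdown tests use the same libraries, so the choice may have affected their adjusted p values and those of the interactions too.

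The libraries came from OV90, an established line of epithelial ovarian cancer cells, and were made from total RNA with a kit for miRNA sequencing. Cells carried an inducible shRNA that was a negative control (shNeg) or was directed against RELA or RELB, which encode the NF-κB transcription factors RelA and RelB. All 6 groups of 4 libraries received 1 µg/ml doxycycline for 72 h, the controls included. The comparisons ask how the miRNAs change when either factor is silenced, and whether the change differs between adherent cells and spheroids, the culture used to enrich for tumor-initiating cells. Adherent cells had a medium with 10% tetracycline-free calf serum. Spheroids were kept without attachment in another medium with 1% serum replacement, 0.4% bovine albumin, 0.1% of an insulin, transferrin and selenium supplement, 20 ng/ml EGF and 10 ng/ml FGF. The labels give 1 medium for all 3 shRNA groups of a culture, so attachment and medium cannot be told apart between cultures, and shRNA groups of 1 culture were listed with the same supplements. No library of cell-free medium was analysed here. In the labels the genotype of shNeg samples is wild type, while their titles name the negative control. The labels do not say whether replicates were separate cultures, so p-values measure the spread between these samples, and miRNA libraries do not read the RELA and RELB mRNAs, so silencing was not checked in them.

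A miRNA is cut from a hairpin precursor, normally by Drosha and then Dicer, and 1 of the hairpin's arms is loaded into an Argonaute protein, where its seed pairs with target mRNAs. miR-451a is the known exception: its hairpin is too short for Dicer and is cut by Argonaute2, which is also needed for efficient maturation of miR-486-5p in red cell precursors. miR-144 and miR-451a are transcribed together as targets of the red cell factor GATA1, and miR-486 lies within the gene of the red cell membrane protein ankyrin-1. These miRNAs are abundant in red cells and are therefore also found in blood plasma and serum.

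RefSeq sequences (GRCh38.p14) were matched by name for 2 of the 5 members, both arms of the miR-144 hairpin, which carry the comparison of arms given later. The hairpin of MIR144 is on the minus strand at chr17:28861533-28861618. The first line gives the 86 bases of the hairpin with both arms in capitals, and the other two give the mature arms with the seed, bases 2 to 8, in capitals.
MIR144 hairpin: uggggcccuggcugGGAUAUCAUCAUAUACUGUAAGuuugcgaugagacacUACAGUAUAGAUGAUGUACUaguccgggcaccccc
hsa-miR-144-5p: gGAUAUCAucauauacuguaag
hsa-miR-144-3p: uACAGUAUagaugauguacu
The 5p arm is at bases 15 to 36 of the hairpin and the 3p arm at bases 52 to 71, with 15 bases between them. Neither seed was shared with another of the 2370 mature names in the RefSeq table, which does not hold every miRNA counted. Bases 2 to 7 of hsa-miR-144-3p were the same as those of hsa-miR-101-3p. The 3p arm had 30.0% G and C and the 5p arm 31.8%, against a median of 54.5% (quartiles 45.5% to 61.1%) over 795 tested miRNAs with a sequence.

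The neighbouring hairpin MIR451A is on the same strand at chr17:28861369-28861440, 92 bases from MIR144. MIR4732 follows on the other side after 36 bases, and MIR451B lies within MIR451A on the opposite strand. All 4 hairpins fall within 362 bases, in an exon of a long non-coding RNA gene (GENCODE 44, GRCh38). hsa-miR-451b had no count in any of the 24 libraries, hsa-miR-4732-5p had 4 counts in 1 library and hsa-miR-4732-3p had 7 counts in 6 libraries.

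Values were estimated counts per miRNA, given as CPM, the count scaled to a common library size, after TMM scaling, which sets the size from miRNAs that differ little between libraries. Library totals ran from 3797175 to 8283549 in adherent culture and from 959141 to 3580931 in spheroids, so 3 counts, the most that a count of 0 allows, were worth 0.495 to 0.8 CPM and 0.860 to 2.29 CPM. Intervals and limits cover counting error only. Between 1043 and 1172 miRNAs had a count in each adherent library and 432 to 1005 in each spheroid library. Spheroid shNeg replicate 1 stood apart with 432, where the rest of its group had 813 to 885. The level and changes of hsa-miR-486-5p in spheroids, and the mean of hsa-miR-328-3p, are also given without it. This library had no count of hsa-miR-451a or hsa-miR-144-5p, and their pooled counts and ratios include it. Without it, their means in spheroid shNeg cells were 1.47 ± 1.27 and 1.04 ± 1.05 CPM (SD, n = 3). Epithelial miRNAs were present in all 6 groups: hsa-miR-200c-3p had a mean between 2034 and 11730 CPM.

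Of the 5 members, 3 were among the 905 miRNAs tested, those that reached 1 CPM in 4 libraries or more. hsa-miR-486-5p passed in 12 of 12 adherent and 12 of 12 spheroid libraries. hsa-miR-451a passed through 8 adherent and 2 spheroid libraries and hsa-miR-144-5p through 6 and 2, so both entered the test mainly through the groups in which they were high. hsa-miR-144-3p reached 1 CPM in 1 library and hsa-miR-486-3p in 2, and neither was tested. Over all libraries, the deposited counts summed to 7826 for hsa-miR-486-5p, 200 for hsa-miR-451a, 108 for hsa-miR-144-5p, 13.5 for hsa-miR-486-3p and 13 for hsa-miR-144-3p.

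hsa-miR-486-5p was the most abundant member and was higher in spheroids than in adherent cells with each shRNA. Its mean was 34.5 ± 4.90 CPM (SD, n = 4) in adherent and 508.5 ± 134 CPM (SD, n = 4) in spheroid shNeg cells. In spheroids it fell 6.75-fold with RELA knockdown and 2.71-fold with RELB knockdown. No call was made for either knockdown in adherent cells. Its hairpins MIR486-1 (chromosome 8, 41660441 to 41660508, minus strand) and MIR486-2 (41660444 to 41660507, plus strand) overlap on opposite strands in an intron of ANK1, so the locus of a read cannot be told apart, and 13 of the 24 deposited values ended in 0.5.

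In adherent culture the 4 shNeg libraries had 37.0, 27.2, 37.7 and 36.1 CPM of hsa-miR-486-5p. The shRELA libraries had 15.5, 26.3, 30.7 and 18.9 CPM, and the shRELB libraries 39.5, 41.2, 36.0 and 44.7 CPM. All 12 adherent libraries were thus at or below 44.7 CPM, and the shNeg range overlapped with that of both knockdowns. In spheroids the shNeg libraries had 707, 412, 467 and 448 CPM. The shRELA libraries had 97.9, 74.6, 62.7 and 66.1 CPM, and the shRELB libraries 206, 193, 136 and 214 CPM. No spheroid group overlapped with another: every shNeg library was above every shRELB library, and every shRELB library above every shRELA library. The share of all miRNAs with no overlap between shRELB and shRELA spheroids was not counted, and these groups were not compared by a test. The highest value, 707 CPM, came from the spheroid shNeg library with few miRNAs detected, and the other 3 libraries of that group had a mean of 442 ± 27.6 CPM (SD, n = 3).

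**Figure D1:**
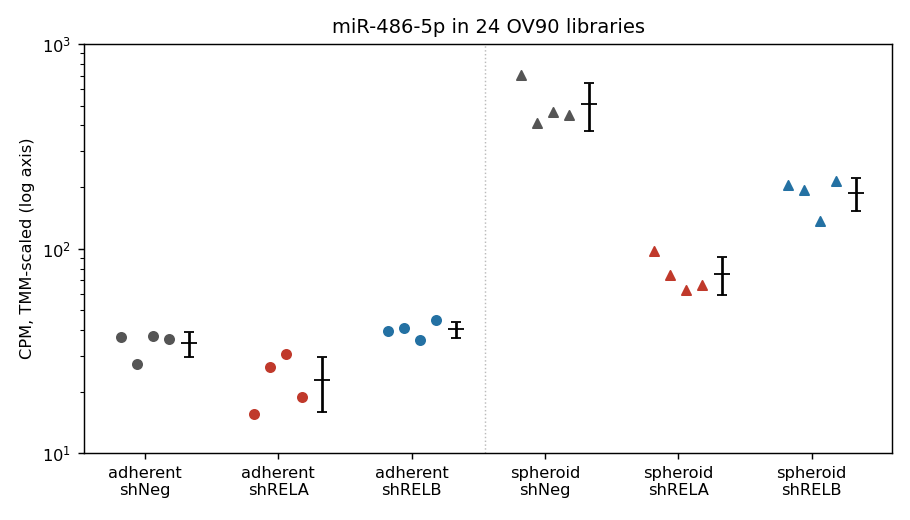
CPM of hsa-miR-486-5p (TMM-scaled, log axis) in each of 24 OV90 libraries by culture and shRNA, with a point per library and the mean and SD of 4 libraries per group. The 3 adherent groups lie between 15.5 and 44.7 CPM, and the spheroid groups step down from shNeg (412 to 707 CPM) over shRELB (136 to 214 CPM) to shRELA (62.7 to 97.9 CPM).

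The group means of hsa-miR-486-5p were ordered from spheroid shNeg over spheroid shRELB (187 ± 35.1 CPM), spheroid shRELA (75.3 ± 15.9 CPM), adherent shRELB (40.3 ± 3.63 CPM) and adherent shNeg to adherent shRELA (22.8 ± 6.90 CPM; SD, n = 4 for each). Neighbours in this order did not overlap down to adherent shRELB. No share over all miRNAs was counted for spheroid shRELB and shRELA, or for spheroid shRELA and adherent shRELB. Adherent shRELB overlapped with adherent shNeg, and adherent shNeg with adherent shRELA. Among all 2656 miRNAs ranked by mean level, hsa-miR-486-5p was number 226 in adherent shNeg cells and number 92 in spheroid shNeg cells. It ranked 253 and 172 with shRELA and 224 and 130 with shRELB in adherent cells and spheroids.

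RELA knockdown in spheroids lowered hsa-miR-486-5p by a log2 fold change of -2.76 (SE 0.24), with an adjusted p of 4.84e-11 by edgeR's quasi-likelihood test over all 905 miRNAs. A call required an adjusted p below 0.01 and a change of more than 2-fold. Of the miRNAs tested, 7.62% were called lower in this comparison, and the change of hsa-miR-486-5p was the 43rd lowest of 905. All 4 shRELA libraries were below all 4 shNeg libraries, as for 9.17% of miRNAs tested. RELB knockdown in spheroids gave a log2 fold change of -1.44 (SE 0.23, adjusted p = 7.23e-06 by the same edgeR test) where 6.08% were called lower. By size this change was the 140th lowest of 905. Again every knockdown library was below every shNeg library, which held for 5.41% of miRNAs tested. Without spheroid shNeg replicate 1 the log2 fold changes were -2.56 and -1.24, and both calls were kept. The shNeg libraries of a culture served as controls for both knockdowns.

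In adherent cells, hsa-miR-486-5p had a log2 fold change of -0.60 (SE 0.23, adjusted p = 0.120, edgeR) with RELA knockdown and of 0.22 (SE 0.23, adjusted p = 0.608, edgeR) with RELB knockdown. The difference between the cultures was tested as an interaction. For RELA, the knockdown's log2 fold change was lower in spheroids by -2.16 (SE 0.32, adjusted p = 3.16e-05, edgeR), against 3.31% of miRNAs called in that direction. For RELB it was lower by -1.66 (SE 0.32, adjusted p = 3.69e-04, edgeR), against 3.87%. Without spheroid shNeg replicate 1 these differences were -1.95 and -1.45, and both remained called. The change of hsa-miR-486-5p with each knockdown was therefore lower in spheroids than in adherent cells, where neither change was called and the RELB value was above 0.

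Between the cultures, given without a test, hsa-miR-486-5p was 14.7-fold higher in spheroids with shNeg (log2 3.88, SE 0.25), 3.30-fold with shRELA (log2 1.72, SE 0.23) and 4.65-fold with shRELB (log2 2.22, SE 0.23). The shNeg value was 3.68 on the log2 scale without replicate 1. Spheroid libraries were all above adherent libraries for hsa-miR-486-5p with each shRNA, as they were for 16.9% of the 905 miRNAs with shNeg, 21.3% with shRELA and 19.2% with shRELB. Over all miRNAs tested the median log2 difference between cultures was -0.26 with shNeg after TMM scaling and 0.17 when scaled by library totals only.

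The other arm, hsa-miR-486-3p, was close to the limit of counting in every group. Its rounded counts summed over 4 libraries to 3, 1 and 2 in adherent shNeg, shRELA and shRELB cells and to 4, 1 and 3 in the spheroids. The highest deposited value in a library was 2.5. No fold is given, since these sums are at or near the 3 counts that a count of 0 allows. The 5p arm took 99.71% of the counts of both arms in adherent libraries (2096 of 2102, exact 95% interval 99.4% to 99.9%) and 99.86% in spheroid libraries (5729 of 5737, 99.7% to 99.9%). The intervals of the shares in the 2 cultures overlapped.

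hsa-miR-451a showed another pattern: it was counted mainly in adherent shNeg and shRELA cells and was low or not counted elsewhere. Adherent shNeg libraries had 24, 23, 30 and 14 counts, or 2.41 to 6.13 CPM. Adherent shRELA libraries had 23, 12, 16 and 38 counts, or 2.29 to 6.29 CPM. Adherent shRELB libraries had 1, 4, 3 and 3 counts, or 0.167 to 0.935 CPM. Every adherent shRELB library was thus below every other adherent library, while shNeg and shRELA overlapped. Spheroid shNeg libraries had 0, 3, 0 and 3 counts and spheroid shRELA libraries 1, 0, 2 and 0. Spheroid shRELB libraries had none, which allows up to 3 counts over the group. In order, the means were 4.47 ± 1.64 CPM in adherent shNeg and 3.86 ± 1.73 CPM in adherent shRELA cells, then 1.10 ± 1.27 CPM in spheroid shNeg and 0.555 ± 0.316 CPM in adherent shRELB cells (SD, n = 4 for each), and the neighbours in each of these pairs overlapped. Spheroid shRELA followed with 0.341 ± 0.430 CPM (SD, n = 4), which overlapped with both of the latter.

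RELB knockdown in adherent cells lowered hsa-miR-451a 7.87-fold, with a log2 fold change of -2.98 (SE 0.69, adjusted p = 0.00257, edgeR's quasi-likelihood test), the 9th lowest of 905. The 8 adherent libraries through which it passed the filter were shNeg and shRELA libraries, where it was high, and none was shRELB. The call and the rank are therefore not independent of the filter. With no filter on low counts the adjusted p was 3.68e-04 (edgeR). In this comparison 3.54% of miRNAs were called lower, and hsa-miR-451a was the only 1 of the 3 members tested that was called. All shRELB libraries were below all shNeg libraries for hsa-miR-451a, as for 15.9% of miRNAs. The pooled counts, 91 against 11, gave a ratio of 8.23 in CPM (exact 95% interval 4.39 to 17.1). The call did not hold, at adjusted p values of 0.0105 to 0.0199, without adherent shNeg replicate 2 or 3 or without adherent shRELB replicate 1, 3 or 4, and the log2 fold change then ran from -2.67 to -3.03. Without spheroid shNeg replicate 1, which enters only the shared estimate of spread, the adjusted p was 1.88e-04 (edgeR).

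RELA knockdown in adherent cells gave hsa-miR-451a a log2 fold change of -0.20 (SE 0.58, adjusted p = 0.898, edgeR), and the pooled ratio of shNeg to shRELA was 1.09 (0.805 to 1.48). None of the 3 members tested was called there, where 2.65% of miRNAs were called lower, and none had all shRELA libraries below all shNeg libraries, as 10.8% of miRNAs had. In spheroids, with 6 counts against 0 over 4 libraries each, the ratio of hsa-miR-451a in shNeg to shRELB had an exact 95% lower limit of 2.05 (3.49 with the 0 set to 3 counts over the group and the 6 counts taken as exact). Of the 4 spheroid shNeg libraries 2 were also at 0, and the adjusted p of 0.0219 (edgeR) did not reach the threshold. With shRELA the counts were 6 and 3, a ratio of shNeg to shRELA of 2.94 with an interval of 0.629 to 18.2 (adjusted p = 0.335, edgeR). Whether the RELB effect on hsa-miR-451a differed between the cultures was not resolved at this depth (interaction adjusted p = 0.398, edgeR), and for RELA the interaction had an adjusted p of 0.508 (edgeR).

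hsa-miR-144-5p, from the neighbouring hairpin, had the same order of groups in adherent cells at lower counts. Adherent shNeg libraries had 16, 14, 10 and 6 counts (2.30 ± 1.16 CPM; SD, n = 4). Adherent shRELA libraries had 17, 6, 4 and 15 counts (1.80 ± 0.998 CPM; SD, n = 4). Adherent shRELB libraries had 4, 2, 3 and 2 counts (0.513 ± 0.113 CPM; SD, n = 4). All 4 shRELB libraries lay below all adherent shNeg libraries, as for 15.9% of miRNAs tested. The 6 adherent libraries through which hsa-miR-144-5p passed the filter were shNeg and shRELA libraries, so this separation is not independent of the filter. In spheroids the counts were 0, 0, 2 and 3 with shNeg, 2, 1, 0 and 0 with shRELA and 0, 0, 0 and 1 with shRELB, so the 3 spheroid groups could not be ordered. Their means were 0.783 ± 1.01, 0.366 ± 0.454 and 0.0717 ± 0.143 CPM (SD, n = 4 for each).

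The log2 fold change of hsa-miR-144-5p with RELB knockdown in adherent cells was -2.06 (SE 0.75), which did not pass at an adjusted p of 0.0649 (edgeR's quasi-likelihood test). The pooled counts, 46 against 11, gave a ratio of 4.16 (2.12 to 8.90). RELA knockdown in adherent cells gave -0.32 (SE 0.67, adjusted p = 0.842, edgeR) and a pooled ratio of shNeg to shRELA of 1.17 (0.752 to 1.82). In spheroids the adjusted p values were 0.467 for RELA and 0.121 for RELB, and those of the interactions were 0.694 and 0.733 (edgeR).

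**Figure D2:**
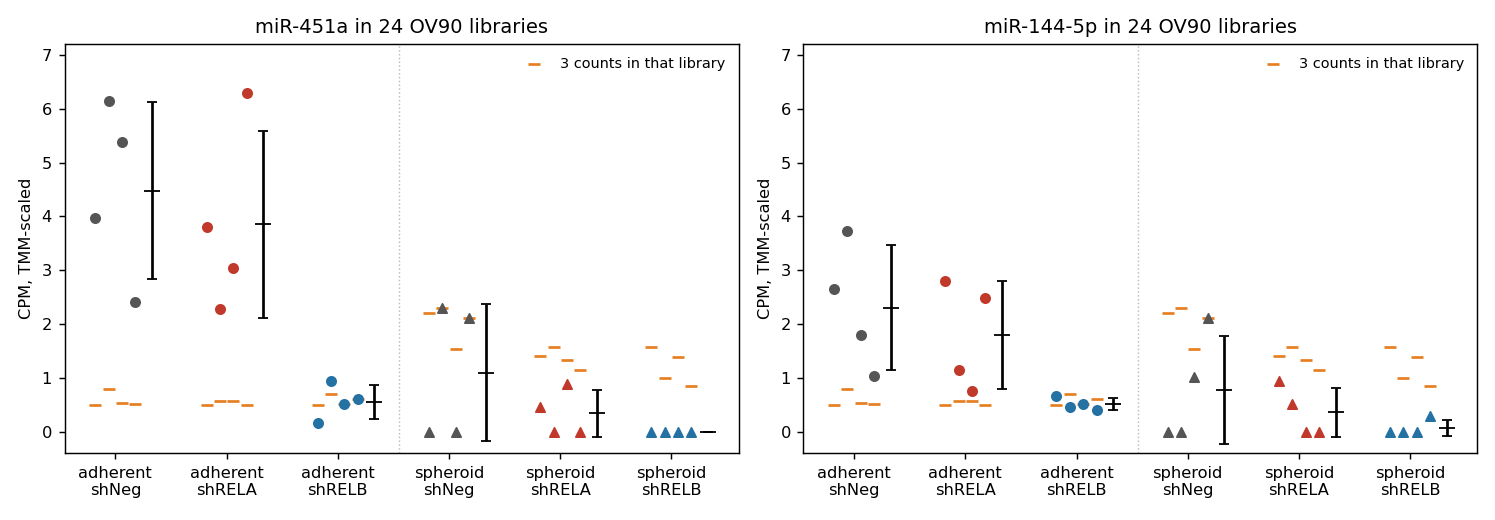
CPM of hsa-miR-451a and hsa-miR-144-5p (TMM-scaled, linear axes) in each of 24 OV90 libraries, with a point per library, an orange line at the level of 3 counts in that library, and the mean and SD of 4 libraries per group. Adherent shNeg and shRELA libraries are highest for both, and adherent shRELB libraries reach at most 0.935 CPM of hsa-miR-451a and 0.669 CPM of hsa-miR-144-5p.

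Between the cultures, again without a test, pooled counts of hsa-miR-451a in adherent against spheroid libraries gave ratios of 4.33 (1.91 to 12.1) with shNeg and 11.7 (3.87 to 57.8) with shRELA. With shRELB, 11 counts against 0 gave an exact 95% lower limit of 1.26 (1.84 with the 0 set to 3 counts over the group). For hsa-miR-144-5p the ratios were 2.63 (1.05 to 8.47) with shNeg, 5.52 (1.76 to 27.8) with shRELA and 5.51 (0.800 to 237) with shRELB. By pooled counts both miRNAs were thus lower in spheroids, opposite to hsa-miR-486-5p, except that the interval of hsa-miR-144-5p with shRELB included a ratio of 1. These intervals leave out the spread between libraries. For hsa-miR-144-5p the libraries of the cultures overlapped with shNeg (log2 -1.44, SE 0.87) and with shRELA (log2 -2.29, SE 0.93). Its lower level in spheroids is therefore uncertain with each shRNA. Spheroid libraries were all below adherent libraries for hsa-miR-451a with each shRNA and for hsa-miR-144-5p with shRELB, where 30.6% of miRNAs were so with shNeg, 25% with shRELA and 22.3% with shRELB. With shNeg the margin for hsa-miR-451a was small, 2.41 against 2.29 CPM, and the groups overlapped when scaled by library totals or by median-ratio size factors. With shRELB nothing can be read from the lack of overlap: the adherent libraries had 0.167 to 0.935 CPM of hsa-miR-451a and 0.403 to 0.669 CPM of hsa-miR-144-5p, while 3 counts were worth 0.860 to 1.58 CPM in the spheroid libraries. Spheroid libraries were also shallower, and a change in the number of cells that carry a miRNA cannot be told apart from a change in its amount per cell.

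**Figure D3:**
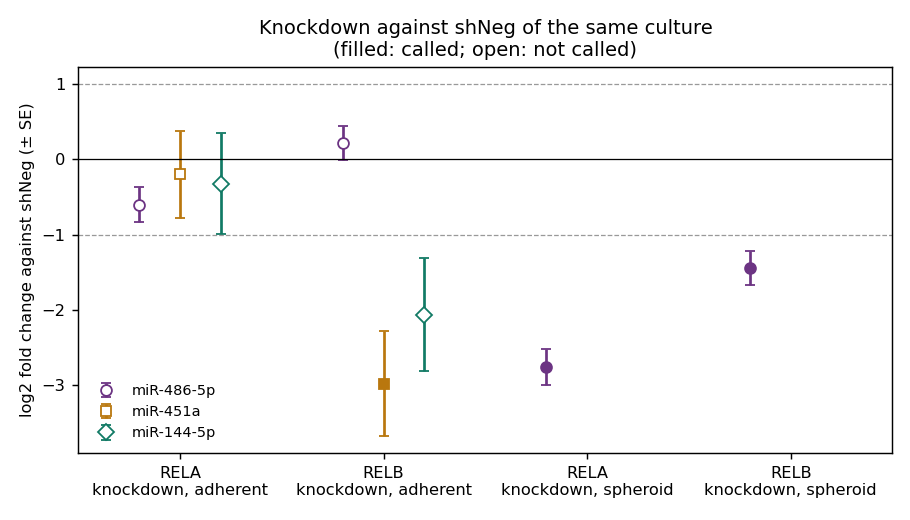
Log2 fold change (± SE) of the members tested, for each knockdown against shNeg of the same culture, with filled points for called changes and open points for those not called; dashed lines mark a 2-fold change. Only hsa-miR-486-5p is drawn for spheroids, at -2.76 and -1.44, because the other two had at most 3 counts in each spheroid library, and hsa-miR-451a at -2.98 is the only called point in adherent cells.

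The 3p arm of miR-144, the arm first annotated as mature miR-144, was the minor arm here. hsa-miR-144-3p summed to 6, 6 and 1 counts in adherent shNeg, shRELA and shRELB libraries and to 0 in each spheroid group. The 5p arm took 88.4% of the counts of both arms in adherent libraries (99 of 112, exact 95% interval 81.0% to 93.7%) and 9 of 9 counts in spheroids, where the lower bound of the interval was 66.4%. These shares come from the arms printed above.

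Counts of hsa-miR-451a were 1.98 times those of hsa-miR-144-5p (1.37 to 2.89) in adherent shNeg libraries and 2.12 times (1.45 to 3.14) in adherent shRELA libraries. In adherent shRELB libraries the ratio was 1.00 (0.393 to 2.54), with 11 counts of each. In the spheroids the sums were 6 and 5 with shNeg, 3 and 3 with shRELA and 0 and 1 with shRELB. The intervals of the 3 adherent ratios overlapped, so a different change of the 2 neighbours was not detectable.

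Likeness of pattern over the 6 groups was measured as the root mean square difference of the mean log2(CPM + 1) of the 6 groups, each miRNA centred on its own mean. It was 0.36 between hsa-miR-451a and hsa-miR-144-5p, which share libraries and low levels, and levels near 1 CPM are compressed on this scale. From hsa-miR-486-5p it was 2.20 to hsa-miR-451a and 1.91 to hsa-miR-144-5p, against a median of 1.85 over the 334 tested miRNAs whose mean reached 10 CPM. Of those, 238 were closer to hsa-miR-486-5p than hsa-miR-451a was, and 180 were closer than hsa-miR-144-5p. hsa-miR-144-5p thus lay about as far from it as the median of these miRNAs, and hsa-miR-451a farther than the median.

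The 3 miRNAs closest to hsa-miR-486-5p were hsa-miR-328-3p at 0.31, hsa-miR-6730-5p at 0.39 and hsa-miR-129-5p at 0.41. They were picked for their group means, so their levels are given without a test. hsa-miR-328-3p had means of 39.5, 34.3 and 70.8 CPM in adherent shNeg, shRELA and shRELB cells and of 562, 109 and 229 CPM in the spheroids. Its spheroid shNeg mean included 1236 CPM in replicate 1, and was 337 ± 83.0 CPM (SD, n = 3) without it. hsa-miR-6730-5p had 1.56, 1.74 and 1.76 CPM in adherent cells and 37.8, 9.22 and 18.2 CPM in spheroids. hsa-miR-129-5p had 1.60, 1.67 and 2.80 CPM in adherent cells and 45.2, 13.3 and 14.7 CPM in spheroids. Each was highest in spheroid shNeg cells and lower there with both shRNAs, as was hsa-miR-486-5p.

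**Figure D4:**
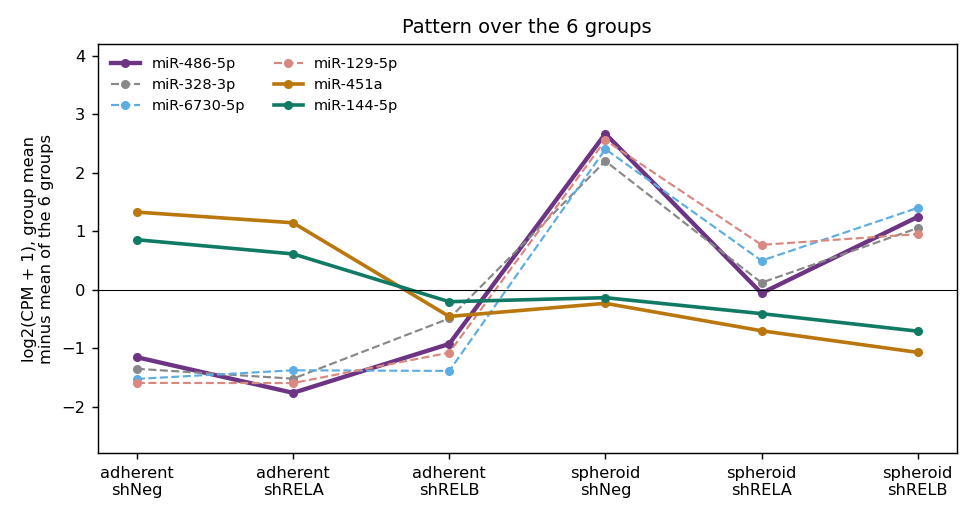
Mean log2(CPM + 1) of each of the 6 groups, centred on the mean of the groups, for the members tested and the 3 miRNAs most like hsa-miR-486-5p. The lines of hsa-miR-328-3p, hsa-miR-6730-5p and hsa-miR-129-5p run with that of hsa-miR-486-5p and peak in spheroid shNeg cells, and those of hsa-miR-451a and hsa-miR-144-5p are highest in adherent shNeg and shRELA cells.

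The mature sequences of these 3 miRNAs (RefSeq, GRCh38.p14) are shown with the seed, bases 2 to 8, in capitals, to show which sequences had this pattern and whether they shared a seed with each other.
hsa-miR-328-3p: cUGGCCCUcucugcccuuccgu
hsa-miR-6730-5p: aGAAAGGUggagggguugucaga
hsa-miR-129-5p: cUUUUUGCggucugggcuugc
Their entries in the RefSeq table were at chr16:67202327-67202348 (minus strand), chr1:12578996-12579018 (minus strand) and chr11:43581408-43581428 (plus strand, hairpin MIR129-2). Loci without an entry there were not looked for. No seed was shared between them or with another name of the RefSeq table. Their share of G and C was 68.2%, 52.2% and 57.1%, against a median of 54.5% (quartiles 45.5% to 61.1%) over the tested miRNAs with a sequence. Both miR-144 arms were below the lower quartile.

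Other miRNAs of red cells were counted from a list that also held the neighbours at the miR-144 locus. Of its 8 miRNAs, 7 had a count and 5 were tested, led by hsa-miR-92a-3p, hsa-miR-16-5p and hsa-miR-25-3p, which most cells make. No listed miRNA was called in adherent cells with either knockdown. In spheroids hsa-miR-16-5p was called higher with RELA knockdown, and hsa-miR-16-5p and hsa-miR-363-3p with RELB knockdown, the latter named after its values were seen. Of all miRNAs tested, 7.51% were called higher in spheroids with RELA and 7.29% with RELB knockdown. The median log2 fold change of the list in spheroids was 0.79 with RELA and 0.87 with RELB knockdown, against 0.09 and 0.16 over all miRNAs tested. In adherent cells it was 0.23 and -0.07, against 0.09 and 0.04. hsa-miR-16-5p was called higher in both interactions, where 4.31% (RELA) and 4.64% (RELB) of miRNAs were. No listed miRNA was thus called lower in spheroids, where hsa-miR-486-5p fell, or in adherent shRELB cells, where hsa-miR-451a fell. With RELB knockdown in spheroids, hsa-miR-92a-3p had a log2 fold change of -0.77 (adjusted p = 3.68e-04, edgeR) and hsa-miR-25-3p of -0.44. Both were short of 2-fold, and the other listed miRNAs tested were above 0. The listed miRNAs of the miR-144 locus were not tested, so they could not be called.

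miRNAs of white cells, platelets and endothelium were the other blood-borne markers. All 8 had a count and 5 were tested, led by the endothelial and platelet miRNAs hsa-miR-126-3p and hsa-miR-126-5p and the lymphocyte miRNA hsa-miR-150-5p. The summed level of the 8 ran from 6493 to 7643 CPM in adherent shNeg libraries, from 4001 to 9285 CPM with shRELA and from 2176 to 2487 CPM with shRELB. In spheroids it ran from 778 to 980 CPM with shNeg, from 1231 to 1783 CPM with shRELA and from 586 to 1274 CPM with shRELB. Between 1 and 3 of the 8 were at 0 in a group. The sum was almost wholly hsa-miR-126-3p and had its highest means in adherent shNeg and shRELA cells, as did hsa-miR-451a and hsa-miR-144-5p. Other listed miRNAs had other orders: the mean of hsa-miR-150-5p was highest in spheroid shRELA cells (20.3 CPM, against 7.90 CPM in adherent shNeg cells) and that of hsa-miR-142-3p, named after its values were seen, in spheroid shNeg cells (4.60 CPM, against 1.32 CPM).

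With RELB knockdown in adherent cells, 3 of the 5 tested were called lower, where 3.54% of all miRNAs tested were. These calls are not separate results, since hsa-miR-126-3p and hsa-miR-126-5p are arms of 1 hairpin. The list was chosen with earlier results known, so the count is no test of the list. The list median was -1.57, against 0.04 over all miRNAs. hsa-miR-126-3p had means of 6876, 6328 and 2309 CPM in adherent shNeg, shRELA and shRELB cells, and of 793, 1386 and 876 CPM in the spheroids. The others called were hsa-miR-126-5p and the myeloid miRNA hsa-miR-223-3p, the latter named after its values were seen. hsa-miR-223-3p had 3.24, 0.458 and 0.210 CPM in adherent cells and 3.48, 1.13 and 1.30 CPM in spheroids. Its 4 counts over the adherent shRELB libraries were below 1 CPM in each, so its call is not independent of the filter. No listed miRNA was called with RELA knockdown or with RELB knockdown in spheroids, where the medians were -0.51 (RELA, adherent), -0.11 (RELA, spheroid) and -0.62 (RELB, spheroid). hsa-miR-126-3p was called higher in the RELB interaction, where 4.64% of miRNAs were. The part of these markers, or of the media, in the levels of hsa-miR-451a and hsa-miR-144-5p was not tested.

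Of 9 miRNAs of liver and muscle, 7 had a count and 5 were tested, and none was called for either knockdown or interaction. hsa-miR-122-5p, the main miRNA of hepatocytes and also a miRNA of serum, had between 14958 and 24793 CPM in the 6 group means, and the cardiac muscle miRNAs hsa-miR-208a-3p and hsa-miR-208b-3p were at 0 in all libraries. The list medians in the 4 knockdown comparisons ran from -0.43 to 0.25. All 6 epithelial miRNAs were tested, led by hsa-miR-200c-3p, hsa-miR-205-5p and hsa-miR-141-3p, and none was at 0 in any group. With RELA knockdown hsa-miR-205-5p was called lower in adherent cells and hsa-miR-200c-3p higher in spheroids. With RELB knockdown hsa-miR-205-5p was called lower in both cultures and hsa-miR-200c-3p higher in both, with hsa-miR-141-3p and hsa-miR-200b-3p also higher in spheroids, the last of which was named after its values were seen. Of all miRNAs tested, 1.1% were called higher with RELA and 3.54% with RELB knockdown in adherent cells, beside the shares given above for spheroids and for lower calls. hsa-miR-200c-3p was also called higher in both interactions and hsa-miR-200b-3p in that of RELA, where 4.31% (RELA) and 4.64% (RELB) of miRNAs were. The list had medians of -1.22 (RELA, adherent), 0.49 (RELB, adherent), 0.12 (RELA, spheroid) and 1.63 (RELB, spheroid).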

How the data were processed

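Small RNA libraries were made by the authors with a QIAseq kit, and reads were trimmed with Cutadapt and assigned to miRBase with miRDeep2 (GRCh38). The deposited table holds an estimated count for every mature miRNA and library. Its title and the methods speak of CPM, but the totals of the libraries are unequal and nearly all values are whole, so the values were read as counts. The kit adds molecular indices, and whether they were collapsed is not given in the sources used here. Fractional values (3.04% of those above 0, found on 84 miRNAs) were rounded to whole counts.

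Counts were scaled by TMM and fitted over all 24 libraries with the 6 groups as the only term (R 4.3.3, edgeR 4.0.16, quasi-likelihood test, common dispersion 0.0888). The 905 miRNAs that reached 1 CPM in 4 libraries or more entered the test. Benjamini-Hochberg adjusted p values were taken over all of them, and a call needed an adjusted p below 0.01 and a fold change above 2. Standard errors were derived from the log2 fold change and its F statistic. Pooled ratios compare counts summed over 4 libraries, with exact 95% intervals (SciPy 1.17.1, Python 3.11.15), and against a sum of 0 the lower limit is given, with the value for 3 counts over the group.

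The members and lists were chosen with earlier results of these data known. Named were the members, up to 3 of the most abundant miRNAs of each list, the miRNAs of the miR-144 locus and the 3 miRNAs most like each member with a mean of at least 10 CPM. Alternatives were other filters, scalings and thresholds, limma 3.58.1 on log2(CPM + 1), DESeq2 1.42.0, a replicate block, only the groups compared, and each library left out in turn. Replicate numbers did not pair the libraries: over 60 pairs with the same number the correlation of deviations ran from -0.51 to 0.42, and 16 were over 0.1.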

Additional observations from a re-analysis of the deposited data

Results flagged for a closer look

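In 13 sets of 4 libraries of 1 group, each for 1 member, the gap of the highest or lowest library from its neighbour was compared with Dixon's 95% value, which chance passes in about 1 of 20 sets. hsa-miR-486-5p was apart in adherent shNeg replicate 2, the lowest of its group at 27.2 CPM. hsa-miR-144-3p was apart in the same library, the highest of its group at 1.07 CPM. That value is 4 counts against 1, 1 and 0 in the rest of the group, and at such low counts Dixon's value need not hold.

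The change of hsa-miR-486-5p with knockdown differed between the cultures by the interaction test, by -2.16 on the log2 scale for RELA and by -1.66 for RELB, both lower in spheroids.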

How the results depend on the processing

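hsa-miR-486-5p kept its direction and its calls in spheroids and in both interactions under every alternative run, with log2 fold changes from -3.14 to -2.56 for RELA and from -1.70 to -1.17 for RELB knockdown in spheroids. The results for hsa-miR-451a and hsa-miR-144-5p rest on few counts. With RELB knockdown in adherent cells, the members called were 0 with a filter at a mean of 10 CPM, which hsa-miR-451a does not pass, and 0 to 1 with a library left out. With RELB knockdown in spheroids they were 2 with DESeq2 (hsa-miR-451a, adjusted p = 0.00751), 2 at an adjusted p below 0.05 and 1 to 2 with a library left out, where hsa-miR-451a was called without spheroid shNeg replicate 3 (adjusted p = 0.00767, edgeR). Members without overlap between the shNeg cultures were 1 with median-ratio factors and 1 with library totals, against 2, and 2 to 3 with a library left out. With shRELA they were 2 to 3 with a library left out. The uncalled interactions changed sign for hsa-miR-451a with RELB in limma (0.95), for hsa-miR-144-5p with RELB in limma (0.49) and, for hsa-miR-144-5p without spheroid shNeg replicate 4, with RELA (0.18) and RELB (0.36). With a library left out, the interactions of hsa-miR-144-5p ran from -1.77 to 0.18 for RELA and from -2.38 to 0.36 for RELB. The cause was not tested. The other values kept their direction. With the replicate block, the number of members called was 1 with RELA and 1 with RELB knockdown in spheroids, 1 with RELB and 0 with RELA knockdown in adherent cells and 1 in each interaction, as without it, and calls over all miRNAs went from 137 to 124 for RELA knockdown in spheroids. Leaving out spheroid shNeg replicate 1 in the adherent comparisons was chosen after seeing the data. Depth limits what can be said of hsa-miR-451a and miR-144 in spheroids, where no library had more than 3 counts.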
